A study of Rattus norvegicus with 20 samples.

Results

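Ptges and Ptgs1 encode enzymes that act one after the other on the route from arachidonic acid to prostaglandin E2. Both were read in all 20 RNA-seq samples of a study of cultured rat epithelial cells, as 2 of the 32494 genes in the count files and 2 of the 13302 genes that reached 1 CPM (1 count in 1000000 reads) in at least 1 sample and were tested. They were found by identifier, ENSRNOG00000006320 for Ptges and ENSRNOG00000007415 for Ptgs1, in the study's lists of genes that differed from whisker cells. Those lists were made on these same samples, before and after transplantation. The difference of either gene from whisker cells in either round is therefore given below as a description, without a test.

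The cells came from the bladder (dome), trachea, vagina, thymus and whisker of Sprague-Dawley rats with a constitutive EGFP transgene (green rat CZ-004, SDTgN(act-EGFP)), and were grown on irradiated mouse 3T3-J2 feeder cells in a medium with cholera toxin. One set of cultures was made before transplantation, and a second set was made from cells recovered after transplantation into newborn mouse skin grafted on athymic mice. All were sorted on EGFP before RNA extraction, and each of the 10 groups of tissue and round held 2 samples. Donor rats had the postnatal age (PN, in days) PN57 for whisker, PN137 for thymus, PN200 for vagina and trachea, and PN201 for bladder. Whisker cells are labelled Cl7 (clone 7) before and scl14 after transplantation, the latter read here as a subclone. The thymus cells before transplantation are labelled both as bulk and as clone 9, and the other groups were bulk cultures. By the paper, the thymus cells of both rounds were from frozen stock of an earlier study. It also names the whisker clone as an exception that was carried to later passages than most cultures. Tissue, donor age, clonal state and this culture history therefore cannot be told apart. In whisker cells, neither can transplantation and the step from Cl7 to scl14. The labels do not say whether the 2 samples of a group came from separate animals or grafts, so the p-values below measure the spread between these samples, which may be that of parallel cultures.

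Prostaglandin synthesis starts when a phospholipase A2 frees arachidonic acid from membranes. A cyclooxygenase turns it into prostaglandin H2, and a terminal synthase turns that into one of the prostanoids, which act on receptors at the cell surface. Ptgs1 is the cyclooxygenase that many tissues make at all times, and Ptgs2 is the form that growth factors and inflammatory signals induce. Ptges is the microsomal synthase of prostaglandin E2, an inducible enzyme. In skin, prostaglandins take part in inflammation, wound repair and the control of hair growth.

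Both genes lie on chromosome 3 of the rat assembly GRCr8. The 250 bases before each annotated start are shown because the 2 genes moved differently between the groups described here. The sequences are from RefSeq, written 5′ to 3′ on the strand of the gene. Ptges, on the minus strand, has this window at chr3:34586988-34587237, and Ptgs1, on the plus strand, at chr3:39981169-39981418. Capitals mark matches to a GC box (GGGCGG) and to an EGR1 element (GCGGGGGCG).
Ptges: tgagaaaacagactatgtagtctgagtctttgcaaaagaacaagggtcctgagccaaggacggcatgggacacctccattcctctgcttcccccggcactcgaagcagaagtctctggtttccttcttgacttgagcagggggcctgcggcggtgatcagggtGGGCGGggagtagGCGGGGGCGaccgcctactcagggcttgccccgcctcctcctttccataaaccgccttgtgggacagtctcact
Ptgs1: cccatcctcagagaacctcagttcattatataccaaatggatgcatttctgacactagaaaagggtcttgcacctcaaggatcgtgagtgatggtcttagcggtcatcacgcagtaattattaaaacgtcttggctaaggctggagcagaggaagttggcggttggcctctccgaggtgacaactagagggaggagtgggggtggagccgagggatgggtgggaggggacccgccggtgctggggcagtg

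The Ptges window held 1 GC box that begins 87 bases before the start and 1 EGR1 element that begins 74 bases before it, both on the strand of the gene and not overlapping. Of the 33469 promoter windows of the same length in the table, 30.5% held the GC box and 2.45% the EGR1 element on either strand. The Ptgs1 window held neither. Neither window held a TATA box (TATAAA, in 12.9% of all windows), a CCAAT box (CCAAT, in 34.0%), a cyclic AMP response element (TGACGTCA, in 1.59%) or an AP-1 element (TGAGTCA, in 4.05%). The GC content was 58.8% for Ptges and 54.4% for Ptgs1, against a median of 51.2% over all windows. These matches are descriptions of the letters alone.

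The samples held between 20723083 and 29824855 counted reads (median 24566208). At this depth, 3 reads in 1 sample corresponded to between 0.0990 and 0.143 CPM, and the 2 members lay above that in every sample. The labelled tissues were checked with those defining markers that could be paired with an identifier. The epithelial markers Cdh1 and Epcam, 2 of 6 in their list, summed to between 999 and 2938 CPM. Tfap2b, the 1 of 5 whisker follicle markers that could be paired, stood between 32.9 and 51.8 CPM in the 4 whisker samples and between 8.14 and 8.42 CPM in recovered vagina cells, and at 0.154 CPM or less in all other samples. Foxa1 was highest in bladder cells, at 74.3 to 128 CPM before and 51.0 to 52.5 CPM after transplantation, whereas the urothelial gene Upk1b was also read at a mean of 131 ± 9 CPM in trachea and 144 ± 29 CPM in thymus cells before transplantation. Aire, the 1 of 4 thymus markers that could be paired, stood at 0.373 CPM or less in thymus cells. Before transplantation its mean in thymus (0.325 CPM) lay above that in bladder only (0.0775 CPM). In recovered cells thymus was the lowest group (0.167 CPM). Aire was highest in vagina, at means of 1.19 CPM before and 3.27 CPM after transplantation, so it did not bear out the thymus label. None of the 4 trachea markers could be paired, so the trachea label could not be checked. Of the 2 of 4 vagina markers that could be paired, Esr1 went from 17.1 and 20.6 CPM before transplantation, above all other groups, to 0.696 and 0.754 CPM in recovered vagina cells, below recovered bladder (2.32 and 2.52 CPM) and recovered thymus cells (0.891 and 0.990 CPM). Emx2 went from 32.4 and 35.6 CPM to 13.7 and 16.0 CPM, next to recovered trachea cells (12.3 and 13.7 CPM). Both markers were highest in vagina cells before transplantation, whereas in recovered cells Esr1 was not and Emx2 lay close to its level in trachea.

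Ptges was read at very different levels in the 5 tissues before transplantation. Its level was 117 and 135 CPM in the 2 vagina samples, 89.5 and 97.1 CPM in trachea, 99.1 and 82.1 CPM in thymus, 23.4 and 20.3 CPM in bladder, and 8.85 and 7.35 CPM in whisker. All levels here are CPM scaled by library, without a correction for transcript length, so they compare groups for 1 gene and not 1 gene with the other. Vagina samples were thus the highest, trachea and thymus samples overlapped, and the bladder and whisker samples each stood apart below them.

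Ptgs1 was ordered differently. It stood at 355 and 440 CPM in bladder, 317.9 and 317.4 CPM in vagina, 176 and 186 CPM in thymus, 166 and 165 CPM in trachea, and 2.29 and 2.34 CPM in whisker cells. The bladder, where Ptges was lowest among the 4 other tissues, held the highest Ptgs1 level. Whisker cells held 55 and 50 Ptgs1 reads against at least 4096 in any sample of the other tissues. In RNA from many EGFP-sorted cells together, fewer cells of a type and less RNA per cell cannot be told apart.

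**Figure D1:**
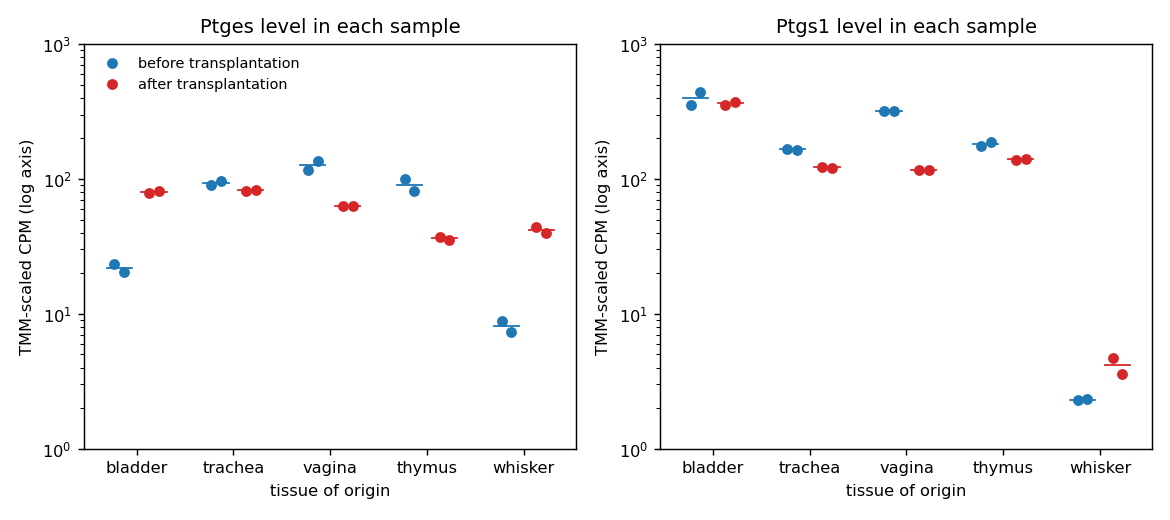
Level of Ptges (left) and Ptgs1 (right) in each of the 20 samples, as TMM-scaled CPM on a log axis, by tissue of origin. Points are samples, bars are the mean of the 2 samples of a group, blue is before and red after transplantation. Whisker samples lie lowest for Ptgs1 in both rounds, while for Ptges the recovered whisker samples, at 44.0 and 39.5 CPM, lie above the recovered thymus samples.

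Against whisker cells before transplantation, the log2 difference of Ptges was 1.43 ± 0.15 for bladder (standard error of the fit, n = 2 per group here and below), 3.52 ± 0.14 for trachea, 3.95 ± 0.14 for vagina and 3.47 ± 0.14 for thymus. As ratios these are 2.70-fold, 11.5-fold, 15.5-fold and 11.1-fold. The Ptgs1 differences were larger, at 7.40 ± 0.20, 6.15 ± 0.20, 7.09 ± 0.20 and 6.28 ± 0.20, or 169-fold, 70.8-fold, 136-fold and 77.6-fold. A call is used below for an adjusted p under 0.05 with a change of at least 2-fold. Of all genes tested, 18.2% were called higher for bladder, 15.4% for trachea, 9.9% for vagina and 12.5% for thymus. The listing fixed on which side of that limit the 2 genes lie in this contrast, so no call is given for them.

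Among the 4 tissues other than whisker, the order before transplantation could be tested. Ptges was lower in bladder than in trachea by 4.26-fold, than in vagina by 5.74-fold and than in thymus by 4.12-fold (adjusted p = 3.35e-10, 1.16e-11 and 1.52e-10). These 3 contrasts called 15.5%, 25.6% and 27.2% of all genes. Ptges was 1.35-fold higher in vagina than in trachea (adjusted p = 0.00105) and 1.39-fold higher than in thymus (adjusted p = 0.000550), differences beyond the spread but under 2-fold. Trachea and thymus could not be separated, with a log2 difference of 0.05 ± 0.10 (adjusted p = 0.696) and a 95% interval of the ratio from 0.898 to 1.19.

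For Ptgs1 the bladder samples stood highest. They exceeded trachea by 2.39-fold and thymus by 2.18-fold (adjusted p = 3.95e-09 and 6.27e-09, the thymus difference being 0.97 on the log2 scale without bladder replicate 2), and vagina by 1.25-fold (adjusted p = 0.00325), which is under 2-fold. Vagina exceeded trachea by 1.92-fold and thymus by 1.75-fold (adjusted p = 9.09e-08 and 6.84e-07), also short of 2-fold. Thymus and trachea could not be separated (log2 difference of trachea minus thymus −0.13 ± 0.08, adjusted p = 0.184).

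Cells recovered from the grafts differed in a gene-specific way. Ptges stood at 78.3 and 80.9 CPM in bladder, 81.7 and 82.9 CPM in trachea, 62.6 and 63.0 CPM in vagina, 37.0 and 35.4 CPM in thymus, and 44.0 and 39.5 CPM in whisker cells. The group means of the 4 tissues other than whisker spanned 5.77-fold before and 2.27-fold after transplantation, and whisker cells were no longer the lowest group.

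Ptges rose in bladder by 3.63-fold, from a mean of 21.9 ± 2.2 to 79.6 ± 1.8 CPM (SD, n = 2; log2 change 1.86 ± 0.11, adjusted p = 8.18e-10). In whisker cells it rose by 5.13-fold, from 8.10 ± 1.06 to 41.8 ± 3.2 CPM (log2 change 2.36 ± 0.15). The genes were listed for standing above whisker cells before transplantation. This rise, and that of Ptgs1 below, start from the same 2 whisker samples, so they are a description and no p is given. The listing also used the samples of the other tissues before transplantation, so it bears on their changes as well. In thymus Ptges fell from 90.6 ± 12.1 to 36.2 ± 1.1 CPM (log2 change −1.32 ± 0.10, adjusted p = 3.24e-08). In vagina it fell from 126 ± 12 to 62.8 ± 0.3 CPM, a log2 change of −1.002 ± 0.096 (adjusted p = 5.38e-07) that lay on the 2-fold limit of a call and was −0.90 without vagina replicate 2 before transplantation and −0.997 without recovered vagina replicate 1. In trachea no change could be shown (log2 change −0.18 ± 0.10, adjusted p = 0.149; ratio of after to before between 0.767 and 1.02). The share of all genes called between rounds was 5.98% for whisker cells, 11.8% for vagina, 12.4% for trachea, 15.4% for thymus and 21.1% for bladder.

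Ptgs1 stood at 355 and 370 CPM in recovered bladder, 123 and 121 CPM in trachea, 117 and 116 CPM in vagina, 138 and 141 CPM in thymus, and 4.74 and 3.56 CPM in whisker cells. The whisker samples remained far below all others, with 103 and 87 reads. The listing used the samples of all tissues, so the p-values of the Ptgs1 changes are no independent test. Ptgs1 fell in vagina from 317.7 ± 0.4 to 116.7 ± 0.6 CPM (log2 change −1.44 ± 0.08, adjusted p = 1.60e-09), the only call for this gene between rounds. It fell by less than 2-fold in trachea (log2 change −0.43 ± 0.08, adjusted p = 0.000602) and thymus (−0.38 ± 0.08, adjusted p = 0.00144). In bladder the change was −0.13 ± 0.08 (adjusted p = 0.199) and turned to 0.028 without bladder replicate 2 before transplantation. In whisker cells Ptgs1 rose by 1.76-fold (log2 change 0.81 ± 0.24), under the 2-fold limit, and by 1.03 on the log2 scale without recovered whisker replicate 2.

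**Figure D2:**
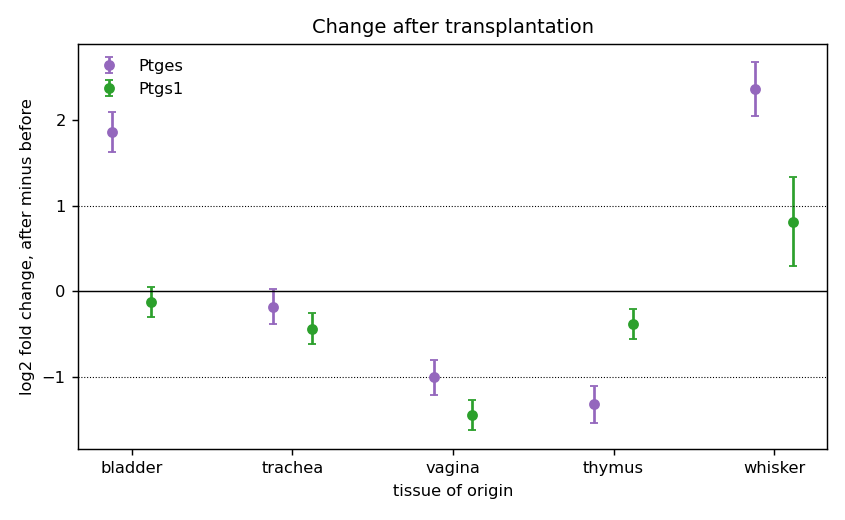
Log2 fold change of Ptges (purple) and Ptgs1 (green) after minus before transplantation in each tissue, from the limma voom fit. Points are estimates, bars are 95% intervals, and dotted lines mark a 2-fold change. Ptges rose in bladder (1.86) and whisker (2.36) and fell in thymus (−1.32), while Ptgs1 fell most in vagina (−1.44).

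The tissues were compared directly in how much each gene changed. For both genes these comparisons contain samples that the listing used, so their p-values are no independent test. The change of Ptges in bladder exceeded that in trachea by 2.04 ± 0.15, that in vagina by 2.86 ± 0.15 and that in thymus by 3.18 ± 0.15 on the log2 scale (adjusted p = 5.56e-08, 2.56e-10 and 1.43e-10). These contrasts called 12.6%, 25.4% and 23.3% of all genes. The change in trachea exceeded that in thymus by 1.14 ± 0.14 (adjusted p = 9.01e-06, 17.5% of all genes called) and that in vagina by 0.82 ± 0.14 (adjusted p = 0.000163, under 2-fold). Vagina and thymus differed by 0.32 ± 0.14 (adjusted p = 0.0753).

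For Ptgs1, the fall in vagina was larger than the change in each of the 3 other tissues. The difference was 1.32 ± 0.12 from bladder, 1.01 ± 0.12 from trachea and 1.07 ± 0.12 from thymus (adjusted p = 1.34e-07, 5.55e-06 and 2.22e-06), in contrasts that called 25.4%, 17.2% and 20.4% of all genes. The value against trachea lay close to the 2-fold limit and was 0.9996 without recovered trachea replicate 1 and 0.997 with DESeq2. The changes in bladder, trachea and thymus could not be separated from one another (adjusted p between 0.0580 and 0.725).

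Against the change in whisker cells, that of Ptges was lower by 2.54 ± 0.18 in trachea, by 3.36 ± 0.18 in vagina and by 3.68 ± 0.18 in thymus on the log2 scale. In bladder it was lower by 0.50 ± 0.18. These values contain the difference from whisker cells before transplantation for which the genes were listed, so they are a description and no p is given. For Ptgs1 the change was lower than in whisker cells by 1.25 ± 0.26 in trachea, by 2.26 ± 0.26 in vagina and by 1.19 ± 0.26 in thymus, and by 0.94 ± 0.26 in bladder. The thymus value was −0.99 without recovered whisker replicate 1, and the bladder value was −1.09 without bladder replicate 1 before transplantation and −1.16 without recovered whisker replicate 2. Of all genes, 21.3% were called in this contrast for bladder, 13.2% for trachea, 11.5% for vagina and 18.6% for thymus, from which nothing is read about the 2 genes. The 4 contrasts share the whisker samples, so they are not separate observations.

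Recovered cells kept a wide gap to recovered whisker cells for Ptgs1 and a narrow one for Ptges. Ptgs1 was higher by 88.4-fold for bladder, 29.9-fold for trachea, 28.5-fold for vagina and 34.1-fold for thymus (log2 differences 6.47 ± 0.16, 4.90 ± 0.16, 4.83 ± 0.16 and 5.09 ± 0.16). For Ptges the ratios were 1.91 in bladder, 1.97 in trachea and 1.51 in vagina (log2 differences 0.93 ± 0.10, 0.98 ± 0.10 and 0.59 ± 0.10). None of these 3 reached 2-fold, although the bladder and trachea differences were 1.01 and 1.06 without recovered whisker replicate 1. In thymus the ratio was 0.868, with a 95% interval from 0.741 to 1.02. The study's lists also cover recovered cells against whisker cells in these same samples, so these differences are a description and no call is given. The contrasts called 13.5%, 9.83%, 5.68% and 10.4% of all genes higher in bladder, trachea, vagina and thymus. Nothing is read from these shares about the 2 genes. With whisker cells before transplantation as the reference instead, Ptges was 9.80-fold, 10.1-fold, 7.73-fold and 4.45-fold higher in recovered bladder, trachea, vagina and thymus cells, so the reference decides this result.

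**Figure D3:**
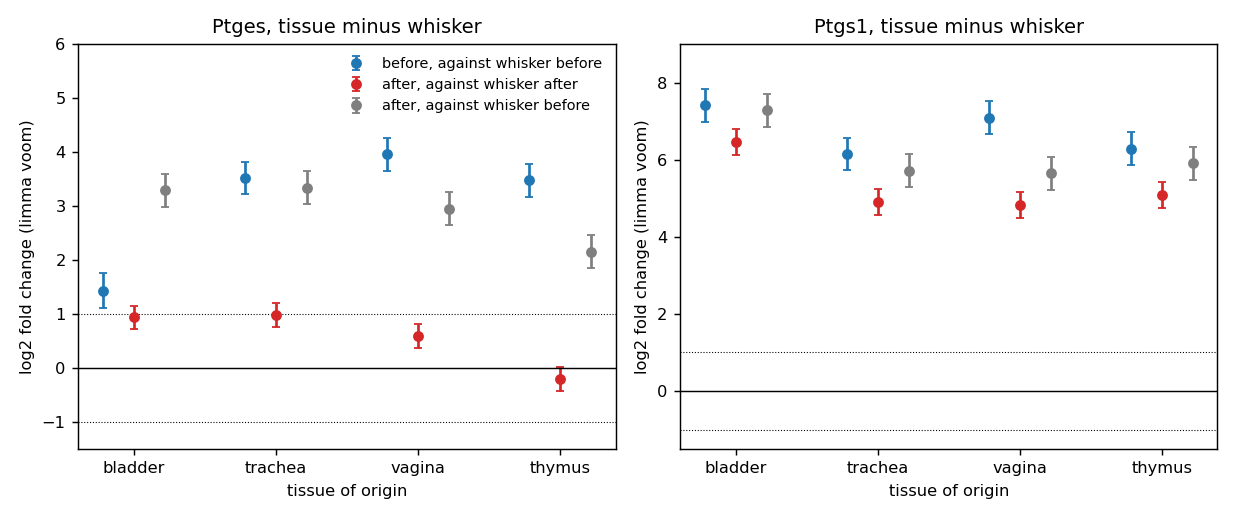
Log2 fold change of Ptges (left) and Ptgs1 (right) in each tissue against whisker cells, with 95% intervals from the limma voom fit. Blue compares cells before transplantation, red compares recovered cells with recovered whisker cells, grey compares recovered cells with whisker cells before transplantation, and dotted lines mark 2-fold. For Ptges the red points lie between −0.20 and 0.98 while the grey points lie between 2.15 and 3.34.

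After transplantation the order of the levels differed from that before it. For Ptges, trachea and bladder could not be separated (adjusted p = 0.698). Both exceeded vagina by less than 2-fold (1.31-fold and 1.27-fold, adjusted p = 0.00420 and 0.00738), and thymus by 2.28-fold and 2.20-fold (adjusted p = 7.00e-08 and 1.69e-07), in contrasts that called 18% and 16.4% of all genes. Vagina exceeded thymus by 1.74-fold (adjusted p = 7.01e-06). For Ptgs1, bladder exceeded trachea by 2.96-fold, vagina by 3.10-fold and thymus by 2.60-fold (adjusted p = 2.83e-10, 1.58e-10 and 1.41e-09), with 18.3%, 19.7% and 16.4% of all genes called. Thymus exceeded vagina by 1.20-fold (adjusted p = 0.0148), but it could not be separated from trachea (adjusted p = 0.0656), nor trachea from vagina (adjusted p = 0.545). The means of Ptgs1 over the 4 tissues spanned 2.41-fold before and 3.10-fold after transplantation.

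The number of Ptges reads per Ptgs1 read in the same sample does not depend on library scaling. It depends on the lengths of the 2 transcripts, so its size in 1 sample is not a ratio of transcripts and only its differences between groups are compared. Before transplantation it was 0.0659 and 0.0462 in the bladder samples, 0.539 and 0.589 in trachea, 0.369 and 0.425 in vagina, 0.563 and 0.440 in thymus, and 3.87 and 3.14 in whisker. Bladder samples were the lowest and whisker samples the highest, without overlap with any other tissue. After transplantation it was 0.221 and 0.219 in bladder, 0.662 and 0.683 in trachea, 0.535 and 0.542 in vagina, 0.268 and 0.251 in thymus, and 9.29 and 11.1 in whisker. Bladder and thymus samples now lay close together at the low end.

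The ratio therefore rose in 4 tissues and fell in 1. Its change on the log2 scale was 1.99 for bladder, 1.54 for whisker, 0.44 for vagina, 0.25 for trachea and −0.94 for thymus, and in each tissue the samples of the 2 rounds did not overlap. Within 1 tissue, 2 samples against 2 leave 0.333 as the smallest two-sided p of an exact permutation, and this was the value in all 5 tissues. Over the 4 tissues other than whisker, with samples exchanged within tissue, the mean change was 0.44 (exact permutation test, two-sided p = 0.224, where 0.00154 is the smallest possible). Over all 5 tissues it was 0.66 (exact permutation test, two-sided p = 0.0440). This last value did not hold: p lay between 0.0545 and 0.0651 (exact permutation test) when any 1 of the 4 bladder samples, any 1 of the 4 whisker samples or thymus replicate 2 before transplantation was left out. Among the 4 tissues other than whisker, the group means of the ratio spanned 10.1-fold before and 3.06-fold after transplantation.

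**Figure D4:**
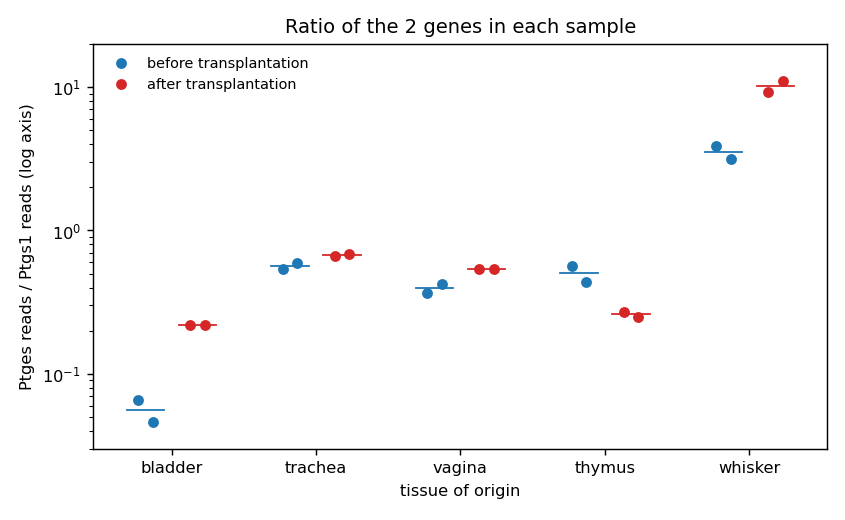
Ptges reads divided by Ptgs1 reads in each sample, on a log axis, by tissue of origin. Points are samples, bars are the mean of 2 samples, blue is before and red after transplantation. The ratio is highest in whisker (means 3.51 and 10.2) and lowest in bladder before transplantation (mean 0.0561), and thymus is the tissue where it is lower after transplantation (0.501 to 0.260).

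Across the 10 group means, log2 levels of the 2 genes had a Pearson correlation of 0.63, given as a description. Without the 2 whisker means it was −0.15 over 8 means. Whisker cells, low for both genes before transplantation, thus carried the positive value.

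Markers of other cell types moved between the groups as well. The 3 of 8 fibroblast markers that could be paired (Col1a1, Col3a1 and Dcn) summed to between 189 and 264 CPM in bladder and trachea cells before transplantation and to between 19.4 and 44.9 CPM in the other 8 groups, recovered bladder and trachea cells included. The sum went from 189 and 246 CPM to 27.5 CPM or less in bladder and from 258 and 264 CPM to 35.4 and 41.2 CPM in trachea, the 2 tissues in which Ptgs2, described below, fell. Cd68, the 1 of 5 immune cell markers that could be paired, went from 13.4 and 14.7 CPM to 52.9 and 55.1 CPM in bladder and from 11.1 and 12.2 CPM to 55.1 and 61.9 CPM in trachea, and from 60.1 and 62.6 CPM to 14.7 and 16.6 CPM in vagina. The smooth muscle gene Acta2, 1 of 4 markers, went from 1.27 and 1.90 CPM to 15.1 and 16.3 CPM in thymus, where Ptges fell, and stood at 10.3 CPM or less in all other groups. The tuft cell genes Avil and Dclk1, 2 of 5 markers of a cell type that is known to express Ptgs1, summed to between 1.20 and 9.17 CPM. None of the 4 mast cell and 3 endothelial markers could be paired. The part of other cell types in the levels of the 2 genes and of Ptgs2 was not tested.

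Of 51 genes of prostanoid and lipoxygenase metabolism, 11 could be paired with an identifier, and all 11 were tested. The symbols come from the study's lists of genes that differ from whisker cells in these samples. The counts against whisker cells are therefore not independent evidence of a direction or of an excess. Changes of these genes in whisker cells start from the same whisker samples, and changes in the other tissues start from samples that the lists also used. The p-values of all those changes below are therefore no independent test. Leaving out Ptges and Ptgs1, 9 genes remained. Before transplantation 4 of them were called higher and 3 lower in bladder than in whisker cells, 3 and 4 in trachea, 3 and 3 in vagina, and 4 and 4 in thymus. Of all genes tested, 18.2%, 15.4%, 9.9% and 12.5% were called higher and 13.7%, 12.9%, 8.66% and 10.4% lower in these contrasts. The median log2 difference of the 9 genes was 0.82, 0.50, −0.11 and 0.40, against 0.02, 0.02, 0.01 and 0.01 over all genes. Since only listed genes could be paired, the listing in large part fixed these calls in advance. Nothing is read from the counts or medians against those of all genes.

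Upstream of the cyclooxygenases, Pla2g2f, a secreted phospholipase A2 known from the suprabasal epidermis, was read in whisker cells before transplantation, at 5.07 and 5.25 CPM. It had 0 reads in all 8 samples of the other tissues, which puts it at least 42.8-fold lower in bladder, 43.7-fold for trachea, 41.7-fold for vagina and 42.4-fold for thymus, each against a floor of 3 reads per library. It fell in whisker cells on transplantation to 1.61 and 0.859 CPM (log2 change −2.13 ± 0.30), given as a description. Pla2g2f reached 1 CPM in whisker samples only, so this fall starts from the samples that brought the gene into the analysis. Its symbol also comes from the lists of genes that differ from whisker cells. The gaps to whisker cells were thus selected for, and the bounds are a description. Recovered bladder cells held 14 and 7 reads, recovered thymus cells 16 and 10, and recovered trachea and vagina cells 1 and 0 each.

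Ptgs2, the inducible cyclooxygenase, was read at 586 and 573 CPM in trachea, 162 and 243 CPM in bladder, 23.2 and 24.0 CPM in vagina, 9.28 and 12.7 CPM in thymus and 3.66 and 3.14 CPM in whisker cells before transplantation. Trachea, which was lowest for Ptgs1 among the 4 other tissues together with thymus, was thus highest for Ptgs2. After transplantation Ptgs2 stood at 189 and 190 CPM in trachea, 96.4 and 98.7 CPM in bladder, 23.6 and 22.4 CPM in vagina, 48.9 and 45.1 CPM in thymus and 5.85 and 6.75 CPM in whisker cells. It fell in trachea (log2 change −1.61 ± 0.13, adjusted p = 7.61e-08) and bladder (−1.02 ± 0.13, adjusted p = 5.31e-06) and rose in thymus (2.11 ± 0.18, adjusted p = 1.13e-07). The bladder change was −0.73 without bladder replicate 2 before transplantation. In vagina the change was −0.04 ± 0.17 (adjusted p = 0.880), and in whisker cells 0.89 ± 0.32 (adjusted p = 0.0527). In bladder, Ptges and Ptgs2 thus moved in opposite directions, as they did in thymus. Against recovered whisker cells, Ptgs2 was higher by 4.90 ± 0.21 on the log2 scale in trachea, 3.95 ± 0.22 in bladder, 2.89 ± 0.22 in thymus and 1.86 ± 0.23 in vagina.

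Of the receptors, Ptger1, which encodes the EP1 receptor of prostaglandin E2, was the 1 of 9 that could be paired. It was read at low levels, between 6 and 112 reads per sample. Its group means before transplantation were 3.87 ± 1.09 CPM in thymus, 1.83 ± 0.16 CPM in bladder, 1.76 ± 0.33 CPM in trachea, 1.20 ± 0.24 CPM in vagina and 0.265 ± 0.022 CPM in whisker cells. It fell in thymus to 1.89 ± 0.20 CPM (log2 change −1.005 ± 0.253, adjusted p = 0.00391) and rose in whisker cells to 0.895 ± 0.355 CPM (log2 change 1.64 ± 0.51, adjusted p = 0.0265). Both directions were those of Ptges in the same tissues, but neither call was stable. The thymus change was −0.72 without thymus replicate 2 before transplantation and −0.88 without recovered thymus replicate 2. The whisker change lost its call without whisker replicate 1 or 2 before transplantation or recovered whisker replicate 2 (adjusted p = 0.139, 0.100 and 0.184). Abcc4, a transporter that exports prostanoids among other substrates, stood at 11.1 and 15.03 CPM in thymus cells before transplantation, below the range of 35.5 to 74.3 CPM seen elsewhere in that round. Its changes were all under 2-fold.

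The lipoxygenases oxidise arachidonic acid on a separate branch. Alox12, the platelet-type enzyme, was highest in thymus cells, at 27.9 to 31.7 CPM before transplantation, and rose there to 139 CPM in both samples (log2 change 2.22 ± 0.12, adjusted p = 3.49e-10). It rose in trachea (1.56 ± 0.34, adjusted p = 0.00157) and fell in vagina (−1.95 ± 0.23, adjusted p = 6.30e-06) and whisker cells (−1.07 ± 0.23, adjusted p = 0.00236). Alox15 fell in thymus from 3.82 ± 0.77 to 0.370 ± 0.197 CPM (log2 change −3.44 ± 0.44, adjusted p = 8.14e-06). Alox5, which opens the leukotriene route, fell in bladder (−1.18 ± 0.36, adjusted p = 0.00984), where its samples before transplantation were far apart at 3.36 and 8.66 CPM. Without bladder replicate 1 before transplantation the Alox5 change was −0.45, and without recovered bladder replicate 1 its adjusted p was 0.0722. The epidermal enzymes Aloxe3 and Alox12b, which act on the lipids of the skin barrier, were highest in whisker cells, at 31.5 to 34.0 and 1.04 to 1.36 CPM before transplantation. Aloxe3 rose in bladder (1.32 ± 0.20, adjusted p = 3.56e-05). Alox12b had 0 reads in bladder before transplantation, which puts it at least 9.94-fold below whisker cells, and 0.0804 CPM or less in trachea, vagina and thymus. It reached 1 CPM in whisker samples only, so those samples brought it into the analysis. The symbols of both genes come from the lists of genes that differ from whisker cells. Their gaps to whisker cells are therefore a description.

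**Figure D5:**
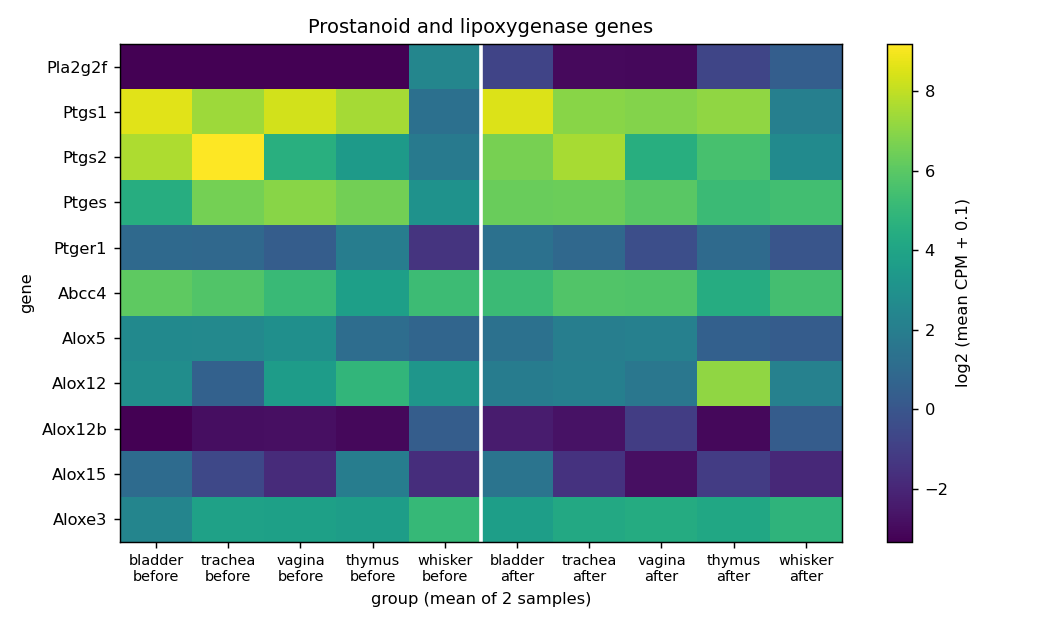
Mean level of the 11 genes of prostanoid and lipoxygenase metabolism that could be paired with an identifier, as log2(mean CPM + 0.1) of the 2 samples of each group. Colours can be compared along a row, not between rows, since levels are not corrected for transcript length. Before transplantation the whisker column is the darkest of its row for Ptgs1, Ptgs2 and Ptges and the lightest for Pla2g2f, Alox12b and Aloxe3, and Alox12 is lightest in recovered thymus cells.

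The genes most like each member over the 10 group means were looked for among 1915 tested genes with a symbol, by the Pearson correlation of log2 CPM. These genes come from the same lists of genes that differ from whisker cells, and the values are a description. For Ptges they were P2rx5, an ATP-gated ion channel (0.913), the transcription factor Emx2 (0.911), the ephrin receptor Epha2 (0.896), Phlda1 (0.893) and Cutc (0.868). For Ptgs1 they were the F-box gene Fbxo21 (0.996), Itm2c (0.966), the glutathione transferase Gstt3 (0.963), Sp140 (0.963) and Tp53i11 (0.961). With Spearman's correlation, 2 of the 5 genes remained for Ptges and 1 of the 5 for Ptgs1, so the lists depend on the measure. Emx2 stood at 2.00 CPM in whisker cells before and 3.97 CPM after transplantation, and between 2.90 and 34.0 CPM in the groups of the 4 other tissues. Fbxo21 stood at 1.59 and 2.00 CPM in whisker cells before and after transplantation and between 8.68 and 18.03 CPM in the other groups.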

How the data were processed

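RNA-seq counts per gene were used for 20 samples, 2 in each of 10 groups of tissue and round. The authors trimmed the reads with cutadapt 1.8, aligned them to Rnor 6.0 with STAR 2.5.2b and deposited raw counts per gene locus from HTSeq 0.6.1 with Ensembl annotation; the strand setting is not given in the sources used here. Lines that name no gene (41.6 to 46.4% of all reads listed) were left out. Genes that reached 1 CPM in any sample were scaled by TMM (edgeR 4.0.16) and fitted in 1 limma voom model over all samples (limma 3.58.1, R 4.3.3), with Benjamini-Hochberg adjustment over all genes within each contrast. A call is an adjusted p below 0.05 with a log2 change of at least 1. The script was tested on simulated counts with 200 changed genes. The ratio of the members was tested by exact permutation of samples within tissue.

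Alternatives were edgeR's quasi-likelihood test, DESeq2 1.42.0, other scaling and filters, a log2 limit of 2, a replicate block, fits of the compared groups alone, whisker cells before transplantation as reference, and each sample left out. Comparisons of change between pairs of the other tissues were added after the data were seen. Named genes were the members, every gene of the pathway lists, and the 5 genes most like each member. Symbols came from supplementary tables held in part, which pair 2307 symbols with identifiers, so 40 of 51 pathway genes were not analysed here, and the fold changes in those tables were not used. The members, gene lists and promoter motifs were chosen with earlier results or the sequences of these data known. Members were matched to RefSeq promoters (GRCr8) by symbol, 2 of 2.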

Additional observations from a re-analysis of the deposited data

Results flagged for a closer look

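In 13 comparisons of the 2 genes, the difference of change between tissues was flagged. The flag was an adjusted p below 0.05 in the limma voom fit and a difference of at least 1 on the log2 scale. Of all genes tested, between 11.5% and 25.4% were called in these contrasts. For the comparisons with whisker cells the flag is no test, since they contain the difference for which the genes were listed. Values are the change of the first tissue minus that of the second, with 2 samples in each group.

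For Ptges, whose change was positive in bladder and whisker cells, the change minus that in whisker cells was −2.54 for trachea, −3.36 for vagina and −3.68 for thymus. The change in bladder minus that in trachea was 2.04, minus that in vagina 2.86 and minus that in thymus 3.18. The change in trachea minus that in thymus was 1.14.

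For Ptgs1, the change minus that in whisker cells was −1.25 for trachea, −2.26 for vagina and −1.19 for thymus. Vagina cells, where this gene fell most, stood apart in the other 3 comparisons: the change in bladder minus that in vagina was 1.32, the change in trachea minus that in vagina was 1.01 and the change in vagina minus that in thymus was −1.07. The 6 comparisons with whisker cells share the same 4 whisker samples and contain the difference from whisker cells before transplantation for which the 2 genes were listed, so they are no independent test. The 7 comparisons between other tissues were added after the data were seen, and they too contain samples that the listing used.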

How the results depend on the processing

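Of 626 recomputed values of the 2 genes (against whisker cells, change after transplantation and difference of change), 604 kept their direction and their side of the threshold. Among the rest, 11 crossed below the threshold, 9 crossed above it and 2 reversed. The listing bears on the side of the threshold in the comparisons with whisker cells. Values kept there are therefore no measure of how firm those differences are. Of 480 values for pairs of the other tissues, 462 kept both, 16 lost a call and 2 reversed. Every pathway gene call that reversed is given below.

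Whisker cells before transplantation as the reference for recovered cells moved Ptges to 3.29 in bladder, 3.34 in trachea, 2.95 in vagina, 2.15 in thymus (reversed) and 2.93 (mean of 4), and Alox12 (mean of 4 tissues) to −0.036 (reversed). A log2 limit of 2 removed the Ptges calls for the changes in bladder (1.86), vagina (−1.002) and thymus (−1.32), and the Ptgs1 call for the change in vagina (−1.44). The Ptges difference of bladder from whisker before transplantation (1.43), for which no call is given, was also short of this limit. So were the Ptgs1 differences of change from whisker in trachea (−1.25), thymus (−1.19) and the mean of 4 (−1.41), likewise given without a call. By its construction this limit lowered every count of called genes, for example from 4250 to 2192 in bladder against whisker before transplantation and from 795 to 268 for the change in whisker cells.

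With 1 sample left out, the Ptges difference from recovered whisker cells lay between 0.85 and 1.01 in bladder and between 0.90 and 1.06 in trachea, and the Ptges change in vagina between −1.10 and −0.90. The Ptgs1 change lay between −0.28 and 0.028 in bladder and between 0.62 and 1.03 in whisker cells, and its difference from whisker between −1.16 and −0.74 in bladder and between −1.41 and −0.99 in thymus. The Ptges difference of trachea minus thymus before transplantation lay between −0.089 (without thymus replicate 2) and 0.18, and at −0.011 without trachea replicate 2. The mean change of the ratio over 5 tissues lay between 0.61 and 0.71. Where a group was left with 1 sample, that sample was taken to vary like the others.

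Same-numbered samples did not deviate together (correlations from −0.12 to 0.24, median 0.02), so the numbers were not taken as pairs. With the replicate block, the ratio change over 5 tissues was 0.66 with an exact p of 0.0938, and no other call of the 2 genes was lost. With 50 to 103 Ptgs1 reads per whisker sample, counting error bears most on the Ptgs1 values against whisker. The floors of 3 reads cover counting error only, while the intervals of the fit include the spread between samples.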
